A study of Mus musculus with 6 samples.

Results

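The 40 genes described here encode proteins that copy DNA in S phase or divide the chromosomes in mitosis, and their RNA was read as a measure of cycling in adult dermal fibroblasts. They were set by name, and 38 of them had a probe set that names 1 gene, among 22180 genes measured in all. The cyclin genes Ccne2 and Ccnb1 had none and were not analysed here. Only Rrm2 had more than 1 such probe set, and its brightest on average was used.

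The fibroblasts came from the ventral skin of female mice, 8 to 12 weeks old, on a C57BL/6 background. In 3 samples the mice were wild type (WT), and the labels give their ventral skin as telogen, the resting phase of the hair follicle. In the other 3 samples the mice were littermates carrying K14-PTHrP (KrP), and the labels call their ventral skin nipple-like. The keratin 14 promoter is active in basal keratinocytes, so the transgene for parathyroid hormone-related protein is aimed at those cells and not at the sorted fibroblasts. Whether the transgene was expressed was not checked here. In both groups the digested cells were pooled, and live cells that carried CD140 but none of CD49f, CD117, CD45 and CD31 were sorted and measured on 1 array per sample. The labels name 3 mice as the source without saying per sample or per group, so the p-values reflect how these samples scatter, and that scatter may be technical. Descriptions of KrP 2 and KrP 3 name a keratin other than K14, whereas their genotypes name K14, which was used.

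A resting cell that commits to division first releases E2F factors from the retinoblastoma family, and E2F turns on cyclin E, the MCM helicase, the enzymes of nucleotide supply and other genes of S phase. Later a second wave, driven by B-Myb and Foxm1 at promoter elements known as the cell cycle homology region (CHR), turns on the genes of mitosis. In resting cells both waves are held down by repressor complexes at the same promoters. Most dermal fibroblasts of adult skin are known to be outside the cycle.

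All 6 arrays had like medians, from 6.34 to 6.43 on the log2 scale, and correlated by 0.986 to 0.994 within groups and 0.976 to 0.989 across them over all probe sets. The sorted cells carried fibroblast markers, and 7 of 7, from Pdgfra to Thy1, lay at log2 values of 9.80 or more in every array. A guide to background was the 95th percentile of 1105 olfactory receptor genes, 6.31, since fibroblasts are not known to use these genes widely. Probe sets differ in brightness for equal amounts of RNA, so the guide is rough and levels of different genes are not ranked. The test between KrP and WT (limma, adjusted p under 0.05) was passed by 2.18% of all genes, 1.15% as higher and 1.03% as lower. Of the markers of other cell types, 1 of 7 endothelial (Tek, lower), 1 of 7 leukocyte (Csf1r, higher) and 1 of 5 mural and muscle genes (Cspg4, lower) passed it. None of 9 keratinocyte, 7 melanocyte and 2 Schwann cell markers did. WT 2 stood apart in keratinocyte markers, whose summed level on the linear scale was 1296 there, against 842 in WT 1, 785 in WT 3 and 756 to 991 in the KrP arrays. KrP 3 stood apart in mural and muscle markers, whose sum was 5825 there, against 2167 in KrP 1, 2761 in KrP 2 and 1479 to 2049 in WT arrays. Of these markers Acta2 reached 12.36 in KrP 3, against 10.69 and 11.08 in KrP 1 and 2. In bulk RNA such as this, fewer cycling cells and less of a transcript per cell cannot be told apart.

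None of the 38 proliferation genes passed the test between KrP and WT fibroblasts, in either direction, at an adjusted p under 0.05 (limma, Benjamini-Hochberg over all genes). Over all genes 2.18% passed, 1.15% as higher and 1.03% as lower. The median log2 fold change of the 38, KrP minus WT, was -0.02, where the median of all 22180 genes was 0.01, with 15 members above 0 and 23 below. At an unadjusted p under 0.05 there were 4 of the 38, namely Kif23, Rrm2, Mcm3 and Ccne1, where 16.0% of all genes reached that level. WT and KrP values did not overlap for 5 of the 38 (Rrm2, Kif23, Mcm3, Ccna2 and Cenpf), where the share of all genes was 20.3%.

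The intervals give the range of differences that the scatter of these samples allows, and that scatter may be technical. For 37 of the 38 genes the 95% interval of the log2 fold change lay within 1 log2 unit of 0, that is, within a 2-fold change in either direction, and 92.0% of all genes had such an interval. The exception was Rrm2. Its interval reached from -2.15 to -0.51. With the replicate number as a block, 2 of the 38 passed, both lower in KrP, namely Rrm2 (adjusted p = 0.00597) and Kif23 (adjusted p = 0.0333), where 8.35% of all genes passed in either direction, 5.33% as higher and 3.02% as lower.

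**Figure D1:**
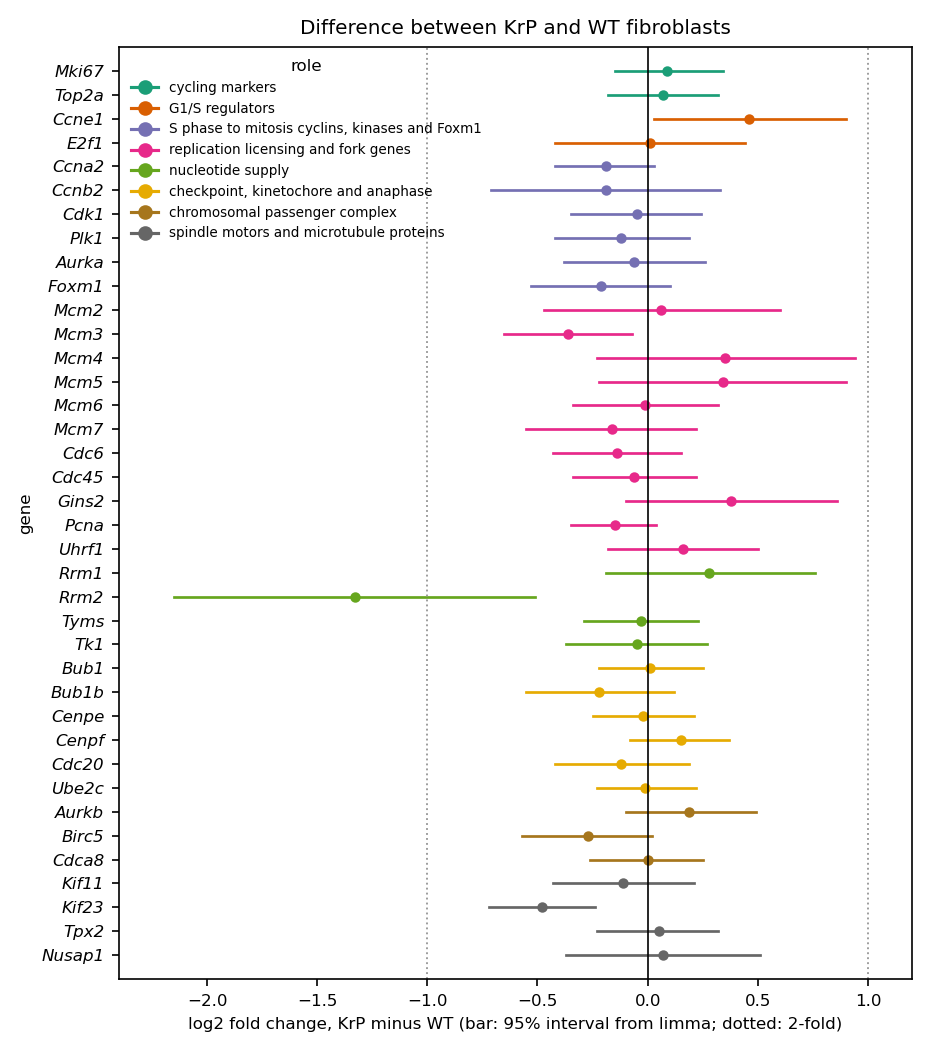
Log2 fold change, KrP minus WT, of the 38 measured proliferation genes (x axis; points, with bars for the 95% interval from limma, 3 arrays per group), with genes on the y axis coloured by role and dotted lines at a 2-fold change. Only the bar of Rrm2, from -2.15 to -0.51, crosses a dotted line, and 34 of the 38 bars include 0.

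Some of these genes lay near the background guide in both genotypes, as did many other genes. On all 6 arrays, 23 of the 38 lay above 6.31, where 12103 of all 22180 genes did. A further 5 (Cdk1, Bub1b, Birc5, Kif23 and Nusap1) did so on some arrays and 10 on none. Of all genes, 2304 did so on some arrays and 7773 on none. The 10 were Mki67, Top2a, Ccna2, Cdc6, Bub1, Cenpe, Cenpf, Ube2c, Cdca8 and Kif11, most of them genes of mitosis. Of the other roles, 10 of the 11 replication genes and 4 of 4 genes of nucleotide supply lay above the guide on every array. Since probe sets differ in brightness, these counts do not rank the roles by level. Near background a true difference is compressed, so the narrow intervals of the 10 genes, which lay between -0.43 and 0.37, bound the measured values and not the RNA itself.

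**Figure D2:**
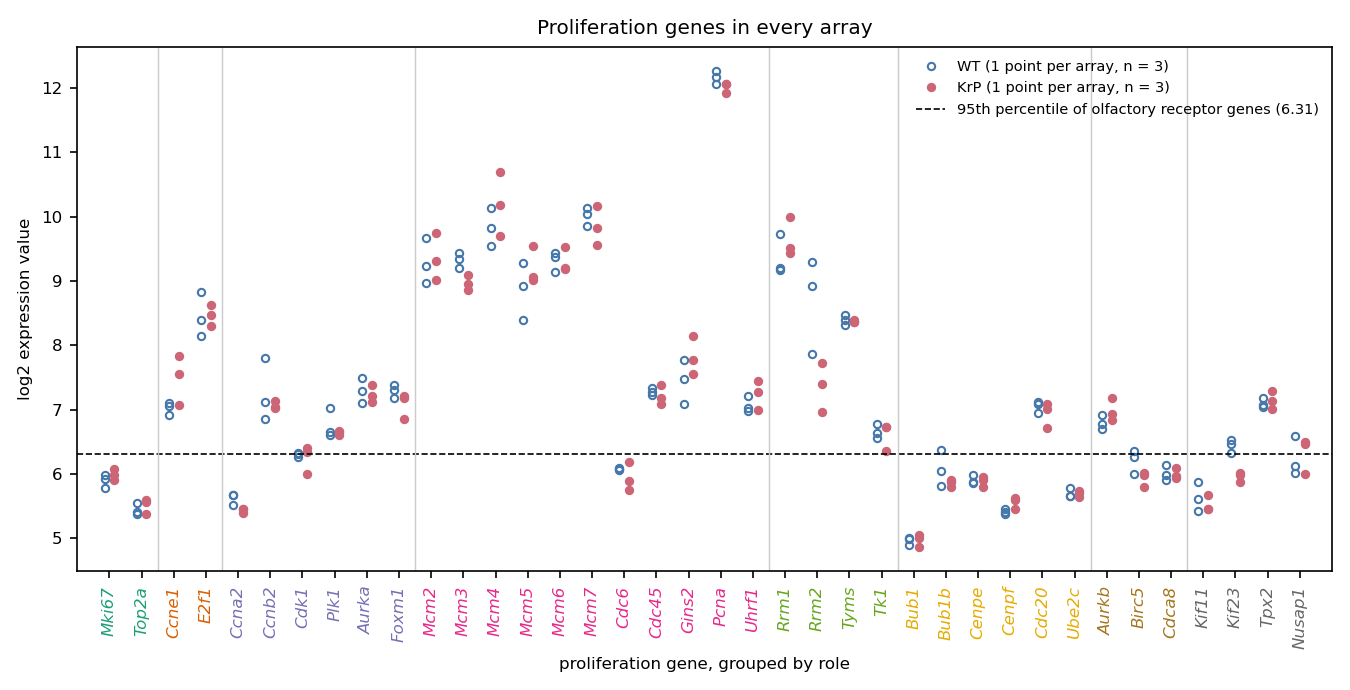
Log2 expression value (y axis) of the 38 genes (x axis, grouped by role and coloured as roles) in each of 3 WT arrays (open circles) and 3 KrP arrays (filled circles), with a dashed line at 6.31, the 95th percentile of olfactory receptor genes. Replication genes other than Cdc6 lie above the line on every array, while Mki67, Top2a, Bub1, Cenpe and Cenpf lie below it on every array.

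The 2 most used markers of cycling cells lay low in both groups. Mki67, which encodes the Ki-67 protein that coats mitotic chromosomes, had log2 values of 5.78, 5.99 and 5.92 in WT and 5.91, 5.99 and 6.07 in KrP arrays. The groups overlapped, and every value was below the guide. Its log2 fold change was 0.09 ± 0.11 (SE, n = 3 each; adjusted p = 0.745), with a 95% interval from -0.15 to 0.34. Top2a, the topoisomerase that untangles sister chromatids, had 5.41, 5.55 and 5.37 in WT and 5.59, 5.56 and 5.38 in KrP arrays. These also overlapped (0.07 ± 0.11 as log2 fold change, adjusted p = 0.834).

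At the entry to S phase, cyclin E1 lay higher on 2 of 3 KrP arrays. Ccne1, which activates Cdk2 to start replication, had log2 values of 7.05, 6.92 and 7.10 in WT and 7.83, 7.08 and 7.55 in KrP arrays. KrP 2 lay among the WT values, so the groups overlapped. The log2 fold change was 0.46 ± 0.19 (adjusted p = 0.278), and without KrP 2 it was 0.67 and passed (adjusted p = 0.045). The transcription factor E2f1, which drives the S phase genes, had 8.83, 8.15 and 8.39 in WT and 8.63, 8.30 and 8.47 in KrP arrays. Its group means of 8.46 and 8.47 differed by much less than the SDs of 0.34 and 0.17.

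Cyclins and kinases that act from S phase to mitosis, with Foxm1, had log2 fold changes a little below 0. For the 6 measured, the values ran from -0.21 to -0.05, and 0 passed, also with the block (0 at an unadjusted p under 0.05). That of Cdk1 turned to 0.07 without KrP 2, and that of Plk1 to 0.01 without WT 3. Ccna2, the cyclin of S and G2 phase, had 5.67, 5.68 and 5.52 in WT and 5.39, 5.45 and 5.45 in KrP arrays. These groups did not overlap, yet all 6 values were below the guide, and the log2 fold change of -0.19 ± 0.10 did not pass (adjusted p = 0.39). Cdk1, the kinase that drives entry into mitosis, had 6.27, 6.31 and 6.33 in WT and 6.41, 6.00 and 6.34 in KrP arrays, with the lowest and the highest value both in KrP. Foxm1, the transcription factor of the mitotic wave, had 7.39, 7.31 and 7.18 in WT and 7.21, 7.18 and 6.85 in KrP arrays (log2 fold change -0.21 ± 0.14, adjusted p = 0.504). Plk1, a kinase of spindle assembly, was set apart by WT 3, with 7.02 against 6.60 to 6.67 on the other arrays. Ccnb2, the partner of Cdk1 in mitosis, was likewise at 7.80 in WT 3 and between 6.85 and 7.14 elsewhere. The centrosome kinase Aurka had overlapping values from 7.11 to 7.50 (log2 fold change -0.06).

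Genes that license origins and build the replication fork lay, apart from Cdc6, well above the guide and were divided in direction. Of 11 measured, 5 had log2 fold changes above 0 and 6 below, from -0.36 to 0.38, and none passed, also with the block. Mcm3, a subunit of the MCM helicase, had 9.34, 9.44 and 9.21 in WT and 9.10, 8.96 and 8.86 in KrP arrays. Every KrP value was below every WT value (log2 fold change -0.36 ± 0.13, adjusted p = 0.213; 0.0871 with the block). Both Mcm4 and Mcm5, other subunits of the ring, lay the other way, without passing. Mcm5 had 9.28, 8.39 and 8.93 in WT and 9.54, 9.02 and 9.06 in KrP arrays, with a log2 fold change of 0.34 ± 0.24. Mcm4 had 10.14, 9.54 and 9.83 in WT and 10.69, 9.70 and 10.18 in KrP arrays (0.35 ± 0.25). The groups of both genes overlapped.

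The remaining MCM subunits differed less between the genotypes. Mcm2 had 9.67, 8.97 and 9.23 in WT and 9.74, 9.01 and 9.31 in KrP arrays, so each KrP array was close to the WT array of the same number. Mcm6 and Mcm7 had log2 fold changes of -0.01 and -0.16. The 6 subunits act as 1 ring in equal numbers, and their median log2 fold change was 0.03, with 3 above 0 and 3 below.

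Other fork proteins gave a like picture. Pcna, the clamp that holds polymerases on DNA and also serves repair, had 12.18, 12.27 and 12.07 in WT and 12.07, 12.06 and 11.93 in KrP arrays. The groups met at 12.07, and the log2 fold change was -0.15 ± 0.09 (adjusted p = 0.436). Gins2, a subunit of the GINS complex that activates the helicase, had 7.77, 7.09 and 7.47 in WT and 8.14, 7.56 and 7.77 in KrP arrays. Its log2 fold change of 0.38 ± 0.21 was the largest of the 11, and it passed neither without the block (adjusted p = 0.431) nor with it (0.0729). Cdc6, which loads the MCM ring and is known to be destroyed in resting cells, had 6.06, 6.08 and 6.10 in WT and 6.18, 5.89 and 5.75 in KrP arrays, below the guide throughout. Cdc45, the other helicase activator, and Uhrf1, which carries DNA methylation to new strands, had log2 fold changes of -0.06 and 0.16.

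Rrm2, in the group of nucleotide supply, had the largest difference of the 38 genes. It encodes the small subunit of ribonucleotide reductase, the enzyme that makes deoxyribonucleotides, and is the subunit known to follow S phase. Its log2 values were 9.30, 7.86 and 8.92 in WT and 7.72, 6.97 and 7.40 in KrP arrays. The groups did not overlap, although WT 2 lay only just above KrP 1. The difference was 2.51-fold (log2 fold change -1.33 ± 0.36 SE, n = 3 each; adjusted p = 0.113 by limma). With the replicate block it passed as lower in KrP (adjusted p = 0.00597), and without WT 2 it did so too (log2 fold change -1.75, adjusted p = 0.0273). Leaving out any other array gave log2 fold changes from -1.51 to -1.03 with no call (adjusted p from 0.131 to 0.356). The second probe set of Rrm2 lay between 3.37 and 3.59 on all arrays, under the background guide, and averaging both gave a log2 fold change of -0.72 (adjusted p = 0.133).

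Of the 7 endothelial markers, Kdr, a VEGF receptor picked out after its values were seen, followed the same order of arrays as Rrm2. It had 9.28, 8.19 and 8.67 in WT and 7.76, 6.84 and 7.31 in KrP arrays (log2 fold change -1.41 ± 0.31, adjusted p = 0.0658, and 0.00158 with the block). The summed linear level of all 7 endothelial markers ran from 921 to 1228 in WT and from 778 to 957 in KrP arrays. Kdr is part of this sum and had the highest value of the 7 on every WT array, so the sum does not stand apart from Kdr. Of the 7 markers, 1 passed. That was Tek, lower in KrP like Kdr, with 6.68, 6.48 and 6.41 in WT and 5.67, 5.60 and 6.02 in KrP arrays. Its log2 fold change was -0.76 ± 0.14 (adjusted p = 0.0386), and its KrP values lay under the guide. Among the defining endothelial genes, Pecam1 lay between 6.49 and 7.13 and Vwf between 6.29 and 6.48, close to the guide in both groups. Cdh5, the cadherin of endothelial junctions, lay the other way from Kdr, with 7.86, 8.18 and 7.32 in WT and 8.56, 8.39 and 8.04 in KrP arrays (log2 fold change 0.54 ± 0.23, adjusted p = 0.304). Emcn, under the guide on every array, had a log2 fold change of 0.36 ± 0.38. The sort had left out cells with CD31, the product of Pecam1, and the part of endothelial cells in the Rrm2 difference was not tested.

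The other genes of nucleotide supply had smaller differences. Rrm1, the large subunit of the same enzyme, had 9.73, 9.20 and 9.17 in WT and 10.00, 9.51 and 9.44 in KrP arrays, with a log2 fold change of 0.28 ± 0.21 (adjusted p = 0.565). Tyms, which makes thymidylate, was nearly level, with 8.48, 8.40 and 8.31 in WT and 8.36, 8.39 and 8.36 in KrP arrays (log2 fold change -0.03, 95% interval from -0.29 to 0.23). Tk1, the thymidine kinase of S phase, had a log2 fold change of -0.05 ± 0.14. Rrm2b, the small subunit used outside S phase and no member of the 40 genes, was looked at after the value of Rrm2 was seen. Its log2 fold change was -0.13 ± 0.15 (adjusted p = 0.766).

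**Figure D3:**
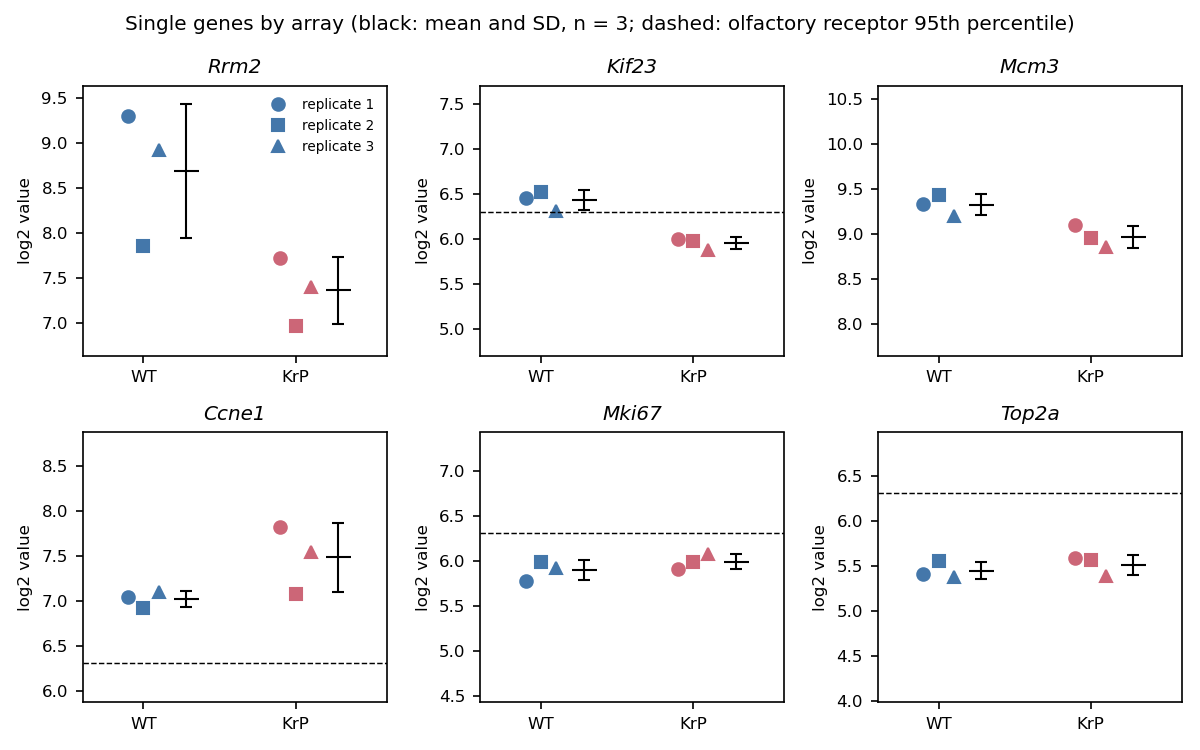
Log2 values (y axis, each panel spanning 3 log2 units) of Rrm2, Kif23, Mcm3, Ccne1, Mki67 and Top2a in WT and KrP arrays (x axis), with marker shape for the replicate number, black marks for mean and SD (n = 3), and a dashed line at 6.31 where it falls in the panel. WT and KrP points are separate for Rrm2, Kif23 and Mcm3 and overlap for Ccne1, Mki67 and Top2a.

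Promoters of 33 of the 40 genes were found by symbol in a RefSeq table of GRCm38.p6, as windows from 250 bases before the start to 50 after it. Shown here, 1 to a line, are those of Rrm2 and Kif23, which passed with the block, of Mcm3, the helicase subunit whose groups did not overlap, and of Cdk1, a mitotic gene that showed no such difference. Each is given 5′ to 3′ on the strand of the gene, for the 250 bases before the start. Capitals mark matches on either strand to CHR (TTTGAA or TTTAAA), to the NF-Y box CCAAT, or to E2F sites (TTTCCCGC, TTTGGCGC or TTTCGCGC), and no marked matches of different motifs overlap.
Rrm2: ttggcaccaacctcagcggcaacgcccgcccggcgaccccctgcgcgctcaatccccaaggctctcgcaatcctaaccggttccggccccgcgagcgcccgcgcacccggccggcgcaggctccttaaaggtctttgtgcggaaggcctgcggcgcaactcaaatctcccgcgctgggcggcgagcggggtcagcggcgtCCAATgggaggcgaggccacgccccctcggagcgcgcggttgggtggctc
Kif23: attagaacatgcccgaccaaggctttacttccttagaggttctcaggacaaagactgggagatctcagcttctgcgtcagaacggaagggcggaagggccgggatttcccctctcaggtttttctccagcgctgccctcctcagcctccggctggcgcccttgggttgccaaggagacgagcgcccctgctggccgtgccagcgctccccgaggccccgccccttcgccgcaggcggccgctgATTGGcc
Mcm3: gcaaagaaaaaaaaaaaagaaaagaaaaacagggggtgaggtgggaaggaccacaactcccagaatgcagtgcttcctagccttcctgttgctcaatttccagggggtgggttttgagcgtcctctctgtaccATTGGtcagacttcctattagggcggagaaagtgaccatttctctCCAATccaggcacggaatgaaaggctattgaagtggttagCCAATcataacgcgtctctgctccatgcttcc
Cdk1: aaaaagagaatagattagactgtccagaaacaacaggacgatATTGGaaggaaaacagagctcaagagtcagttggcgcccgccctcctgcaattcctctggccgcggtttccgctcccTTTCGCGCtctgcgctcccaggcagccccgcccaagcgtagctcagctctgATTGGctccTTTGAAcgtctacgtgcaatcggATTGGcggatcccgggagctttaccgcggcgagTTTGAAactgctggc

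The printed stretches lie at chr12:24708004-24708253 on the plus strand for Rrm2 and, on the minus strand, at chr9:61946800-61947049 for Kif23, chr1:20820313-20820562 for Mcm3 and chr10:69352913-69353162 for Cdk1. Rrm2 and Kif23 each held 1 CCAAT match there, and 1 CHR match each in the 50 bases after the start, not printed. Mcm3 held 3 CCAAT matches, with 2 E2F matches after the start. Cdk1 held 3 CCAAT, 2 CHR and 1 E2F match. Over the 35 windows of the 33 genes, CHR matched in 65.7%, CCAAT in 80% and E2F in 20%, where the shares of all 32851 windows were 27.6%, 37.4% and 1.84%. These are matches of letters and not measured sites.

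Among the members of the mitosis groups, Kif23 had the largest difference. It encodes a kinesin of the central spindle needed for cytokinesis. Its log2 values were 6.46, 6.53 and 6.32 in WT and 6.01, 5.98 and 5.88 in KrP arrays, so that every KrP value was below the guide and every WT value above it. The log2 fold change was -0.48 ± 0.11 (SE, n = 3 each; 1.39-fold; adjusted p = 0.0671), and it passed with the block (0.0333). It also passed when the lower 25% of genes by mean level were dropped (0.0492), but in no fit that left out an array (0.0775 to 0.296). With the KrP values under the guide, this fold describes the measured values and not the RNA itself.

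The other motor and microtubule genes had smaller differences, from -0.11 to 0.07. Kif11, the motor that pushes spindle poles apart, had 5.88, 5.61 and 5.42 in WT and 5.67, 5.46 and 5.45 in KrP arrays, below the guide. Tpx2, which nucleates spindle microtubules, had a log2 fold change of 0.05, and Nusap1, which bundles them, of 0.07. Both had overlapping groups.

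Kinetochore, checkpoint and anaphase genes were close to level between the groups. Across the 6, log2 fold changes ran from -0.22 to 0.15 and none passed. Bub1, a checkpoint kinase, had values between 4.86 and 5.05 on the 6 arrays, with group means of 4.96 ± 0.06 in WT and 4.97 ± 0.10 in KrP (SD, n = 3 each), all under the guide. Cdc20, which switches on the anaphase-promoting complex, had 7.09, 7.12 and 6.95 in WT and 7.01, 7.09 and 6.71 in KrP arrays (log2 fold change -0.12 ± 0.13). Cenpf, a kinetochore protein, had non-overlapping groups at 5.38 to 5.45 and 5.46 to 5.62, parted by 0.01 and below the guide. The kinetochore motor Cenpe and the ubiquitin enzyme Ube2c had log2 fold changes of -0.02 and -0.01. Bub1b was highest in WT 2 at 6.37, where keratinocyte markers were also highest, and lay between 5.80 and 6.04 on the other arrays. The sort had left out cells with CD49f, an integrin of basal keratinocytes, and whether keratinocytes had a part in that value was not tested.

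The chromosomal passenger complex, which corrects chromosome attachment, showed no common direction. Birc5, its survivin subunit, had 6.00, 6.36 and 6.27 in WT and 5.80, 5.99 and 6.02 in KrP arrays, overlapping narrowly (log2 fold change -0.27 ± 0.13, adjusted p = 0.35). Its kinase Aurkb had 6.77, 6.91 and 6.70 in WT and 7.18, 6.94 and 6.84 in KrP arrays (0.19 ± 0.13, adjusted p = 0.522). The subunit Cdca8 had group means of 6.01 and 6.00.

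Within each genotype, the replication genes varied together among arrays. WT 1 was the highest WT array for 8 of the 11 replication genes, and KrP 1 was the highest KrP array for all 11. Over all genes, 18.6% were highest in both arrays numbered 1, against 17 of the 38 proliferation genes and 5 of the 6 MCM subunits. The median deviation of the MCM subunits from their own group's mean was 0.21 in WT 1, -0.23 in WT 2 and -0.03 in WT 3, and 0.33, -0.24 and -0.07 in KrP 1, 2 and 3. For the 13 genes of mitosis in the checkpoint, passenger and spindle groups, it stayed between -0.04 and 0.07 on every array. Of these 13, only 3 lay above the guide on all 6 arrays, and near background a deviation is compressed. The 47 other replication genes measured, listed apart from the 40, had a median deviation of 0.11 in WT 1 and 0.10 in KrP 1, and between -0.09 and -0.07 on the other 4 arrays. The 57 other genes of mitosis and cytokinesis had 0.08 in WT 1 and 0.06 in KrP 1, and between -0.08 and -0.00 on the other 4 arrays. Of these 57 genes, 36.8% were highest in both arrays numbered 1, as were 55.3% of the 47, so the pattern was not confined to replication genes. Genes of 1 array share its RNA and are not independent replicates.

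**Figure D4:**
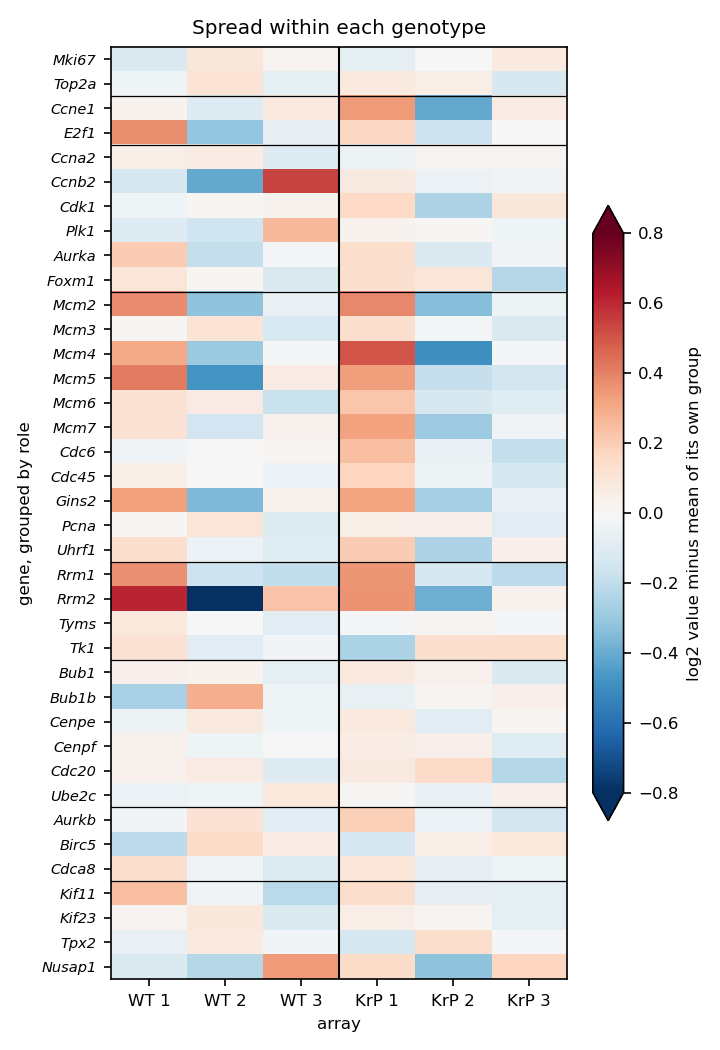
Log2 value of each gene (rows, grouped by role) minus the mean of its own genotype, for 3 WT and 3 KrP arrays (columns), with red above and blue below that mean. WT 1 and KrP 1 are red, and WT 2 and KrP 2 blue, across Mcm2, Mcm4, Mcm5, Gins2 and Rrm2, while rows of mitosis genes are mostly pale.

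Further cell cycle genes outside the 40 gave few calls. Their counts stand beside the shares of all genes, which were 16.0% at an unadjusted p under 0.05 and, with the block, 5.33% higher and 3.02% lower. Of 47 other replication genes, 0 rose and 0 fell in limma (7 at an unadjusted p under 0.05), with a median log2 fold change of 0.13, and 5 rose with the block. These 5 were Rfc2, Rfc3 and Rfc5, parts of the clamp loader, and the polymerase subunits Pold1 and Pole2, with log2 fold changes from 0.47 to 0.95. Of 57 other genes of mitosis and cytokinesis, 0 rose and 0 fell (4 at an unadjusted p under 0.05; median 0.10), and with the block Ncaph rose and Fam83d and Cks2 fell. Fam83d, a spindle protein, had log2 values of 7.33, 7.36 and 7.06 in WT and 6.76, 6.52 and 6.25 in KrP arrays (log2 fold change -0.74 ± 0.16, adjusted p = 0.0595, and 0.0118 with the block). Gmnn and Cdt1, which restrain and permit licensing, had log2 fold changes of -0.12 and -0.06. Of 25 replication-dependent histone genes, which are made in S phase and whose near-identical copies can share probe signal, 0 rose and 0 fell without the block (6 at an unadjusted p under 0.05) and 4 rose with it (5.33% of all genes did), and 15 of the 25 lay under the guide on all arrays. The largest difference was that of H1f5, at 4.05, 4.29 and 4.41 in WT and 6.48, 4.85 and 6.42 in KrP arrays (adjusted p = 0.0814, and 0.0291 with the block). Only KrP 1 and KrP 3 lay above the guide, and by little, so this difference describes the measured values and not the RNA itself. Genes named here for their calls with the block, Fam83d and H1f5 were chosen after their values were seen.

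Brakes on the cycle were measured too. Of 33 E2F, DP and repressor genes, 0 rose and 0 fell (7 at an unadjusted p under 0.05; median log2 fold change 0.02), and 5 rose with the block, where the shares of all genes were 16.0% and 5.33%. Cdkn1a, the inhibitor p21, was at 12.92 to 13.16 on every array (log2 fold change -0.12, 95% interval from -0.29 to 0.06). The inhibitors Cdkn1b (p27) and Cdkn1c (p57) had log2 fold changes of 0.36 ± 0.29 and 0.10 ± 0.12. Of the pocket proteins that hold E2F in check, Rb1 had 0.27 ± 0.13 (adjusted p = 0.366). Rbl1, chosen after its values were seen, had 7.11, 6.80 and 6.93 in WT and 7.91, 7.42 and 7.62 in KrP arrays. Its groups did not overlap, and its log2 fold change of 0.70 ± 0.16 (adjusted p = 0.0682) passed with the block (0.0116) and with the lower 50% of genes dropped. Rbl2 had 9.06, 8.15 and 8.80 in WT and 10.01, 8.70 and 9.25 in KrP arrays (0.65 ± 0.34, adjusted p = 0.411, and 0.0291 with the block). Their partner E2f4 had a log2 fold change of -0.03.

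Upstream of these genes, 2 of 10 D cyclin and G1 kinase genes fell and none rose (3 fell and 1 rose with the block), where 1.03% of all genes fell and, with the block, 3.02% fell and 5.33% rose. Cyclin D1 (Ccnd1) was 6.05-fold lower in KrP arrays, at 8.10, 9.46 and 8.11 against 11.58, 10.69 and 11.19 in WT (adjusted p = 0.016). Its value in KrP 2 stood apart from the other KrP arrays and lay nearest to WT. Cdk6, the kinase partner of cyclin D1, was 2.22-fold lower, at 9.76, 10.40 and 9.95 against 11.16, 11.20 and 11.21 (adjusted p = 0.0131). Both calls ended without WT 1, WT 3 or KrP 3 (adjusted p from 0.0512 to 0.0962), and that of Cdk6 also without WT 2 (0.0519). The log2 fold changes in those fits stayed near the full ones of -2.60 and -1.15, from -2.58 to -2.37 for Ccnd1 and from -1.17 to -1.11 for Cdk6.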

How the data were processed

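The authors deposited a table of log2 expression values by probe set for 3 WT and 3 KrP samples. The submitters' processing notes name RMA and Partek, with no version and no role, and a genome build is not given in the sources used here. Total RNA (100 ng) was labelled with a whole-transcript kit, per the labels' protocols. Of 34390 probe sets, 23521 had 1 gene symbol in the platform annotation, 1814 several and 9055 none, and 23328 of the 23521 were matched by gene ID to RefSeq names (GRCm38.p6). The highest-mean probe set stood for each of 22180 genes. Arrays carry no depth, so their number limits the precision.

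KrP and WT were compared in R 4.3.3 with the package limma 3.58.1 (lmFit, then eBayes with a mean trend, no filter, no block, 4 residual degrees of freedom), checked on simulated data, and Benjamini-Hochberg adjustment ran over all genes. Log2 fold changes are KrP means minus WT means. Same-numbered samples of both groups deviated together from their group means (correlations across genes of 0.414, 0.350 and 0.120), so replicate numbers may pair the samples. Samples of unlike number gave -0.385 to 0.067, so the 0.120 of the samples numbered 3 stood out little. Deviations within a group of 3 sum to 0, so these correlations depend on each other. No label states such a pairing. Fits that block on this number are quoted where a call changes. Members and lists were chosen with earlier results of these data known, so no list was tested. Values by array are given for passing members, the 8 with the smallest p, and at least 1 set for each role. From other lists, called genes and 9 set regulators and brakes are named. Promoter sequences are from RefSeq. Plots used Python 3.11.15 and matplotlib 3.10.9.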

Additional observations from a re-analysis of the deposited data

How the results depend on the processing

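Of 38 proliferation genes, 0 passed in the main analysis and also without the trend, with a robust prior, with quantile normalisation or median centring and with probe sets averaged. With the lower 50% of genes dropped, 0 passed of the 21 still tested, a set without Kif23. With the lower 25% dropped 1 of 34 passed (Kif23), with the replicate block 2 (Rrm2 and Kif23) and with weighted arrays 8. Of these 8, 7 were lower in KrP (Ccnb2, Cdc6, Foxm1, Kif23, Mcm3, Plk1 and Rrm2) and 1 was higher (Ccne1). The weighted fit passed 6410 of all 22180 genes, 3759 as higher and 2651 as lower. Leaving out 1 array gave 0 to 1, namely Rrm2 without WT 2 and Ccne1 without KrP 2. The median log2 fold change of the proliferation genes lay between -0.10 and 0.01 in every alternative run. Of 171 other listed genes, 2 passed, against 4 of the 95 still tested with the lower 50% dropped and, of all 171, 21 with the block, 55 with weighted arrays and 0 to 8 with 1 array left out. Over all genes 483 passed, against 1851 with the block, 6410 with weighted arrays and 85 to 1116 with 1 array left out. The array weights ran from 0.409 to 7.91, with KrP 3 highest, so the weighted fit rests largely on that array. Other causes were not tested. Quantile normalisation turned the split of calls over all genes from 255 higher and 228 lower to 207 and 242. Of the 33 genes refitted by name, none had a call that reversed in an alternative that tested it. Only Ccnd1 and Cdk6 among them had a call in the main fit, so few calls could reverse. Across the alternatives, a call was gained in 14 refits of a gene and lost in 7. With 3 arrays per group, and 10 of 38 genes under the background guide on every array, a change in a small number of cycling cells could go undetected.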
